A study of Mus musculus with 10 samples.

Results

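Messenger RNA of 9 genes of the Notch pathway was examined in mouse blood stem and progenitor cells on Affymetrix arrays: the ligand gene Jag1, the receptor genes Notch1 and Notch2, the receptor protease gene Adam10, the nuclear genes Rbpj and Maml1, the inhibitor gene Numb and the genes Hes1 and Hes6 of the HES family. The genes were taken by their platform gene symbols, which gave 22 of 45037 probe sets (groups of short probes that read 1 transcript), after 64 control probe sets had been left out. None of the 22 passed the test across all probe sets in any comparison of treatments or constructs. The clearest pattern among them went with the replicate number: for Rbpj, Adam10, Hes6, Numb and Jag1, a probe set read more than 1 log2 unit above replicate 2 in replicate 1 with an unadjusted p under 0.05, while another probe set of the same gene differed by 0.49 at most. The other Numb probe set, at 0.49, was also higher in replicate 1, without overlap of the arrays. The larger differences had adjusted p of 0.156 to 0.193. All but that of Numb passed among brighter probe sets alone (3.77% of them) and with the spread modelled otherwise (6.01% of all probe sets). The Jag1 probe set counted as brighter only through its replicate 1 arrays. None of the larger differences passed after the arrays had been rescaled. At an unadjusted p under 0.05 there were 6 of the 22, against 13.7% of all probe sets.

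Notch receptors are cut when a ligand of the Delta or Jagged family on a neighbouring cell binds them. ADAM10 makes the first cut and gamma-secretase the second, and the freed receptor tail enters the nucleus. There it joins the DNA-binding protein RBPJ and a Mastermind protein such as MAML1 and turns on genes such as Hes1. In blood formation Notch1 is known above all for directing early progenitors to the T cell lineage.

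The cells were LSK cells (without lineage markers, with Sca1 and c-kit on the surface) that carried a retroviral vector with EGFP and a HOXB4 transgene. HOXB4, a homeobox protein, makes blood stem cells multiply in culture when present in excess. In HOXB4-ER it is fused to an oestrogen receptor domain that responds to 4-hydroxytamoxifen (TMX), which sends it into the nucleus, and TMX withdrawal inactivates it. HOXB4const is unmodified HOXB4, which acts without TMX and served the study as a control for effects of TMX itself. The 10 arrays form 5 groups of 2: 3 of HOXB4-ER, withdrawn from TMX for 4 h, withdrawn for 1 h, or held in 10 nM TMX for 1 h, and 2 of HOXB4const, withdrawn for 1 h or held in 10 nM TMX for 1 h. All groups had been expanded for 14 days with SCF, FLT3 ligand, IL-11, IL-3 and TMX, were sorted as LSK cells and were kept for 12 h more with TMX. Every group therefore carried HOXB4, and cells without a transgene, or with TMX for 4 h, were not analysed here. The labels call the 2 arrays of a group biological replicates without naming their animals or cultures, so p-values measure the spread between these samples.

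The deposited values are log2 signals, with array medians between 3.96 and 5.32. The median of 5.32 belongs to replicate 1 of HOXB4const cells without TMX, which stood apart, and results that rest on it are given with and without it. The sort gene Kit read 8.72 to 10.9 and the progenitor gene Cd34 10.8 to 11.9 over the arrays. The Sca1 gene Ly6a was not matched to a probe set. Genes listed as markers of mast cells, monocytes, macrophages and neutrophils were read too. All 5 of 5 mast cell genes and 8 of 8 monocyte and macrophage genes lay at or above the median level of probe sets, as did 4 of 6 neutrophil genes. Among them the mast cell gene Cpa3 read 11.5 to 12.7 and the neutrophil gene Mpo 10.5 to 13.3. Other neutrophil genes were dimmer: Ltf and Camp lay below the median level, and S100a8 and S100a9 had means of 3.23 and 1.81 in replicate 2, against 8.56 and 7.15 in replicate 1. Of 4 matched lineage genes that the sort should remove 2 lay at or above the median level of probe sets (Cd8a at 4.31 to 6.09 and Itgam at 3.34 to 8.04), and of 5 matched T cell genes 3 did. The number of arrays limits the precision. The half-width of the 95% confidence interval was 1.76 log2 units in the median over the 22 probe sets, for 2 groups of 2 arrays. Of these, 14 lay at or above the median mean level of all probe sets (4.05) and 8 below it, where values are noisiest. Levels of different probe sets are not compared, since each has its own binding strength. In bulk RNA fewer cells of a type and less RNA per cell cannot be told apart.

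The ligand gene Jag1 was read by 3 probe sets that did not move together. The probe set with the highest mean, 1434070_at, read 6.49 and 4.66 at 4 h and 6.64 and 5.29 at 1 h without TMX, against 7.84 and 5.06 with TMX, in HOXB4-ER cells (replicates 1 and 2, log2). In HOXB4const cells it read 5.05 and 1.09 without TMX and 5.22 and 3.93 with TMX. Replicate 1 was the higher array in 5 of 5 groups, and the value of 1.09 was far below the other 9. The probe set 1421105_at read 3.48 and 3.57 after 4 h and 1.86 and 1.83 after 1 h without TMX, against 2.75 and 3.63 with TMX, in HOXB4-ER cells. It read 5.35 and 4.33 without TMX and 4.26 and 4.64 with TMX in HOXB4const cells, so that all HOXB4-ER arrays lay below the HOXB4const arrays. On 1434070_at the HOXB4-ER arrays were on average above them. The third probe set, 1421106_at, spread from 0.59 to 4.77 over the arrays. Among the HOXB4-ER groups only the 4 h arrays without TMX (3.85 and 0.59) and those with TMX (3.86 and 3.92) were apart, the 4 h arrays below.

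Adam10, whose protein makes the first cut in the receptor, varied little in HOXB4-ER cells and more in HOXB4const cells on its brightest probe set. Probe set 1428103_at read 10.2 and 10.3 after 4 h without TMX, 9.79 and 10.1 after 1 h without TMX, and 10.2 and 9.93 with TMX in HOXB4-ER cells (replicates 1 and 2). In HOXB4const cells it read 9.32 and 10.6 without TMX and 10.1 and 9.45 with TMX. Among the HOXB4-ER groups only the 4 h and 1 h arrays without TMX were apart, the 4 h arrays above. The other 3 probe sets spread from −0.36 to 6.74, and 2 of them lay below the median level.

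The receptor genes Notch1 and Notch2 were read by 2 probe sets each. Notch1 read 6.77 and 5.96 after 4 h without TMX, 6.58 and 5.22 after 1 h without TMX, and 6.01 and 5.04 with TMX in HOXB4-ER cells (probe set 1418634_at, replicates 1 and 2). It read 6.65 and 5.90 without TMX and 6.15 and 6.22 with TMX in HOXB4const cells. The 3 HOXB4-ER groups overlapped, with each replicate 1 array above its replicate 2 array. The second Notch1 probe set, 1418633_at, read 4.70 and 4.94 after 4 h and 4.99 and 4.19 after 1 h without TMX, against 4.18 and 4.21 with TMX, in HOXB4-ER cells. In HOXB4const cells it read 3.72 and 3.97 without TMX and 5.05 and 5.64 with TMX, and these groups did not overlap.

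Notch2 was among the steadiest of the members on probe set 1455556_at, with all 10 arrays between 8.24 and 9.32. It read 8.93 and 8.80 after 4 h without TMX, 8.24 and 8.30 after 1 h without TMX, and 8.62 and 8.41 with TMX in HOXB4-ER cells. It read 8.93 and 9.27 without TMX and 8.95 and 9.32 with TMX in HOXB4const cells. The 4 HOXB4-ER arrays of 1 h were therefore all below the 4 HOXB4const arrays. The dimmer probe set 1451889_at lay between 1.21 and 4.90.

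Rbpj encodes the protein through which the cut receptor reaches DNA. Its brightest probe set, 1454896_at, read 9.02 and 8.50 after 4 h without TMX, 8.33 and 8.38 after 1 h without TMX, and 8.89 and 8.51 with TMX in HOXB4-ER cells. In HOXB4const cells it read 7.92 and 8.76 without TMX and 8.58 and 8.46 with TMX. The 1 h arrays without TMX lay below both other HOXB4-ER groups, by less than the error of the test. Probe set 1448957_at read 7.33 to 8.58 over the 10 arrays, and probe set 1418114_at 3.71 to 6.83.

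The promoter of Rbpj is shown because RBPJ itself recognises the core sequence TGGGAA, and the Rbpj windows alone among those of the members hold it. RefSeq promoter windows of build GRCm38.p6 (250 bases before to 50 bases after a gene start) were searched on both strands, and 12 windows of 8 members matched by symbol. Hes1 was not matched. The 250 bases before 1 of the 2 Rbpj starts, on the plus strand at chr5:53590096-53590345, are given 5′ to 3′ with matches to TGGGAA or its reverse complement TTCCCA in capitals.
Rbpj: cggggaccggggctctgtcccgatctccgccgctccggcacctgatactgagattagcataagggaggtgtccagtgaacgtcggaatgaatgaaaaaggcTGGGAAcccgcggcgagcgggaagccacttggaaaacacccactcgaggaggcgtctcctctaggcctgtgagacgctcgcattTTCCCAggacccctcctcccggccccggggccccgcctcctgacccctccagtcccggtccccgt
The 2 matches begin 149 and 65 bases before the start, and the window of the second start overlaps this one and holds 1 of them. Of all 32851 windows, 25.6% hold TGGGAA, against 2 of the 12 windows of the members. The longer form GTGGGAA was in 0 of the 12 and in 6.38% of all windows. CACNAG, the N box that HES proteins bind, was in 4 of the 12 windows, of Notch1, Notch2, Hes6 and Numb, and in 42.5% of all windows. These are matches of letters only, and the array files hold no measure of binding.

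The coactivator gene Maml1 read 7.96 and 7.62 after 4 h without TMX, 7.67 and 7.46 after 1 h without TMX, and 8.25 and 6.95 with TMX in HOXB4-ER cells (probe set 1426769_s_at, replicates 1 and 2). It read 7.96 and 8.09 without TMX and 7.64 and 8.06 with TMX in HOXB4const cells. The groups overlapped, and the widest gap was between the 2 arrays with TMX of HOXB4-ER. Probe set 1452188_at read 5.27 to 6.44 and the dim 1441697_at −0.24 to 5.29 over the arrays.

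Numb, whose protein restrains Notch by promoting its removal from the membrane, read 8.36 and 7.91 after 4 h without TMX, 8.31 and 7.27 after 1 h without TMX, and 8.40 and 7.70 with TMX in HOXB4-ER cells (probe set 1416891_at, replicates 1 and 2). It read 8.03 and 7.79 without TMX and 7.995 and 7.98 with TMX in HOXB4const cells. Groups overlapped, while the 2 replicate numbers did not. Probe set 1425368_a_at was dim, at 1.38 to 5.10.

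The target gene Hes1, a repressor that Notch switches on in many tissues, had 1 probe set, which lay below the median level. It read 4.62 and 4.52 after 4 h without TMX, 5.59 and 1.76 after 1 h without TMX, and 4.43 and 3.05 with TMX in HOXB4-ER cells (probe set 1418102_at, replicates 1 and 2). It read 3.32 and 3.37 without TMX and 3.51 and 4.73 with TMX in HOXB4const cells. The 2 arrays of 1 h without TMX were the highest and the lowest of all 10.

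Hes6, whose protein is known to oppose HES1, read 8.08 and 8.27 after 4 h without TMX, 8.39 and 7.73 after 1 h without TMX, and 8.32 and 8.17 with TMX in HOXB4-ER cells (probe set 1436050_x_at, replicates 1 and 2). It read 7.48 and 7.16 without TMX and 8.41 and 8.21 with TMX in HOXB4const cells. The HOXB4const arrays without TMX were the lowest of the 10. Probe set 1452021_a_at read 4.50 to 7.25 and put the same HOXB4const arrays, at 7.04 and 5.56, above those with TMX, at 6.15 and 4.50.

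**Figure D1:**
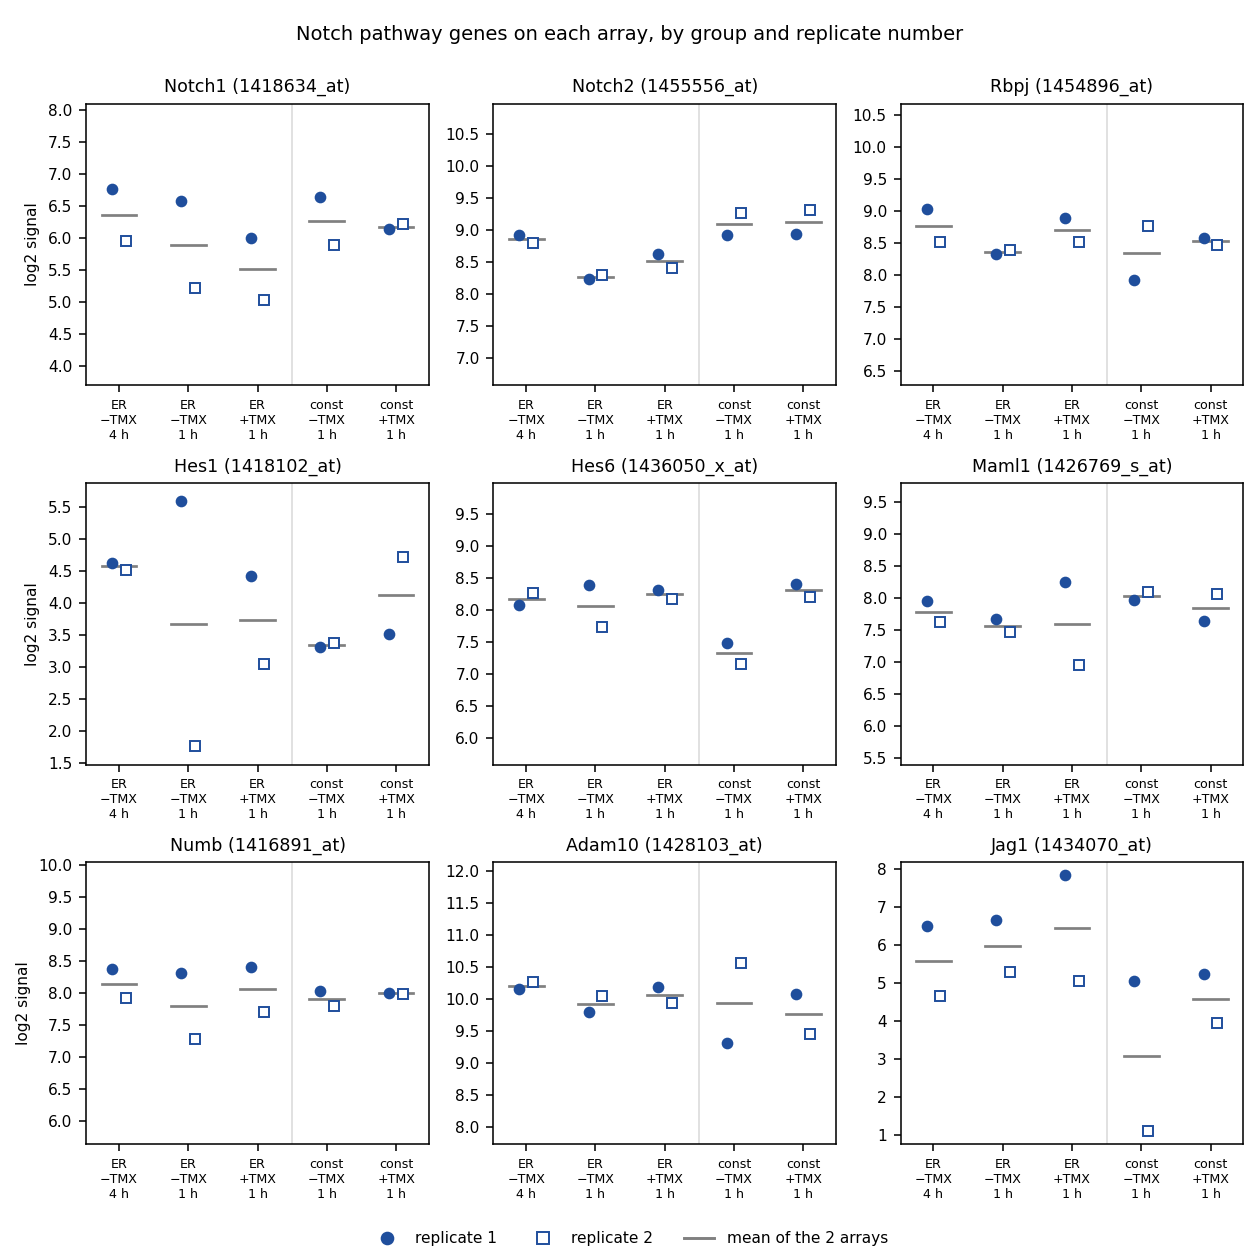
Log2 signal (vertical axes, not starting at 0) of the probe set with the highest mean for each of the 9 genes, on the 10 arrays by group (ER is HOXB4-ER, const is HOXB4const, minus and plus mark absence and presence of TMX). Filled circles are replicate 1, open squares replicate 2 and bars the mean of the 2 arrays; Notch2 spans 8.24 to 9.32 and Jag1 1.09 to 7.84.

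The first question was whether these genes respond within 1 h of HOXB4 inactivation. Taking each gene by its brightest probe set, differences without minus with TMX in HOXB4-ER cells ran from −0.48 for Jag1 to 0.38 for Notch1, with 8 of 9 below 0. Their median was −0.18, against 0.12 over all probe sets. The count rests on the choice of probe set: over all 22, 9 were above and 13 below 0 (median −0.10), and with the mean of each gene's probe sets 5 genes were above and 4 below 0 (median 0.17). Limma called 0 of the 22 member probe sets and 0% of all 45037 (adjusted p under 0.05). With each array centred on its median, 9 of 9 genes were below 0, and the median of all probe sets was then −0.27. At an unadjusted p under 0.05 it gave 1 of the 22, against 4.76% of all. That was the dim Jag1 probe set 1421105_at, at 1.85 ± 0.02 without TMX and 3.19 ± 0.63 with TMX (SD, n = 2 each), a difference of −1.34 ± 0.53 (standard error, limma adjusted p = 0.982). Arrays of the 2 groups were apart for 1 member probe set that was higher and 3 that were lower, against 21.1% and 11% of all probe sets. For Notch2 the difference was −0.24 with a 95% confidence interval of −1.21 to 0.72, and for Rbpj −0.34 (−1.46 to 0.77). For Hes1 it was −0.06 (−2.84 to 2.72), so that even large changes of Hes1 would not be detectable here.

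After 4 h without TMX, 7 of the 9 genes stood above and 2 below the arrays with TMX, which were of 1 h, so that time and withdrawal cannot be told apart. The median of the 9 was 0.15, against −0.02 over all probe sets. With the mean of each gene's probe sets 4 were above and 5 below 0 (median −0.23). Notch1 gave 0.84 ± 0.65 and Hes1 0.83 ± 1.18 (difference ± standard error), and Jag1 −0.87 ± 1.50. Notch2 gave 0.35 ± 0.41, with the 4 h arrays above those with TMX, and the second Notch1 probe set 0.63 ± 0.47. None of these passed: limma called 0 of 22 member probe sets and 0% of all, with 0 of 22 at an unadjusted p under 0.05, against 3.35% of all. Arrays were apart for 4 higher and 3 lower member probe sets, against 14.8% and 15.2% of all. The difference for Notch1 has a 95% confidence interval of −0.69 to 2.38.

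Between 4 h and 1 h without TMX, 8 of the 9 genes were above 0 in HOXB4-ER cells, with a median of 0.35 against −0.17 over all probe sets. Over all 22 member probe sets 13 were above and 9 below 0 (median 0.17), and with the mean of each gene's probe sets 5 genes were above and 4 below (median 0.08). Notch2 gave 0.60 ± 0.41, Rbpj 0.41 ± 0.47, Adam10 0.29 ± 0.54, Notch1 0.46 ± 0.65 and Jag1 −0.39 ± 1.50. No call was made by limma (0 of 22 and 0% of all). The dim Jag1 probe set 1421105_at was the 1 of 22 at an unadjusted p under 0.05, against 5.68% of all, at 3.52 ± 0.07 after 4 h and 1.85 ± 0.02 after 1 h (SD, n = 2 each), with an adjusted p of 0.709. It shares its 1 h arrays with the comparison against TMX. Arrays were apart for 6 higher and 4 lower member probe sets, against 12.8% and 23.4% of all.

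In HOXB4const cells, where TMX should not matter for HOXB4, the same difference ran from −1.51 for Jag1 to 0.18 for Maml1. Of the 9 genes, 3 were above and 6 below 0 without TMX, with a median of −0.08 against 0.09 over all probe sets, while quantile normalization put 5 above and 4 below 0 and median centring 0 above and 9 below, the same 9 of 9 as in HOXB4-ER cells. Over all 22 probe sets 9 were above and 13 below 0. Hes6 gave −0.99 ± 0.44 (95% confidence interval −2.01 to 0.04), Jag1 −1.51 ± 1.50 and Hes1 −0.77 ± 1.18. The other 6 genes lay between −0.18 and 0.18, and between −0.28 for Notch1 and 0.80 for Adam10 without the array that stood apart. Again limma called 0 of 22 and 0% of all. At an unadjusted p under 0.05 there were 2 of 22, against 4.34% of all: Notch1 probe set 1418633_at at −1.50 ± 0.47 and the dim Maml1 probe set 1441697_at at 3.09 ± 1.23. Without the replicate 1 array that stood apart these were −1.37 and 1.52, Hes6 was −1.15 and Jag1 −3.49. Without the replicate 2 array Jag1 was 0.47, so its direction rests on the array that read 1.09. Arrays were apart for 2 higher and 4 lower member probe sets, against 15.8% and 9.17% of all.

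The withdrawal effect at 1 h was then compared between the constructs as an interaction. Differences, HOXB4-ER minus HOXB4const, ran from −0.32 for Adam10 to 1.03 for Jag1, with a median of −0.16 against 0.02 over all probe sets. Without the array that stood apart they ran from −0.94 for Adam10 to 3.01 for Jag1, and with the mean of each gene's probe sets the median was 0.30. For the interaction, too, 0 of 22 and 0% of all passed. Notch1 probe set 1418633_at, at 1.89 ± 0.67, was the 1 of 22 at an unadjusted p under 0.05, against 3.77% of all. It was 1.77 without the array that stood apart. Its brighter counterpart 1418634_at gave 0.29 ± 0.92. For 1418633_at the withdrawal difference was 0.40 ± 0.47 for HOXB4-ER, against −1.50 ± 0.47 for HOXB4const.

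**Figure D2:**
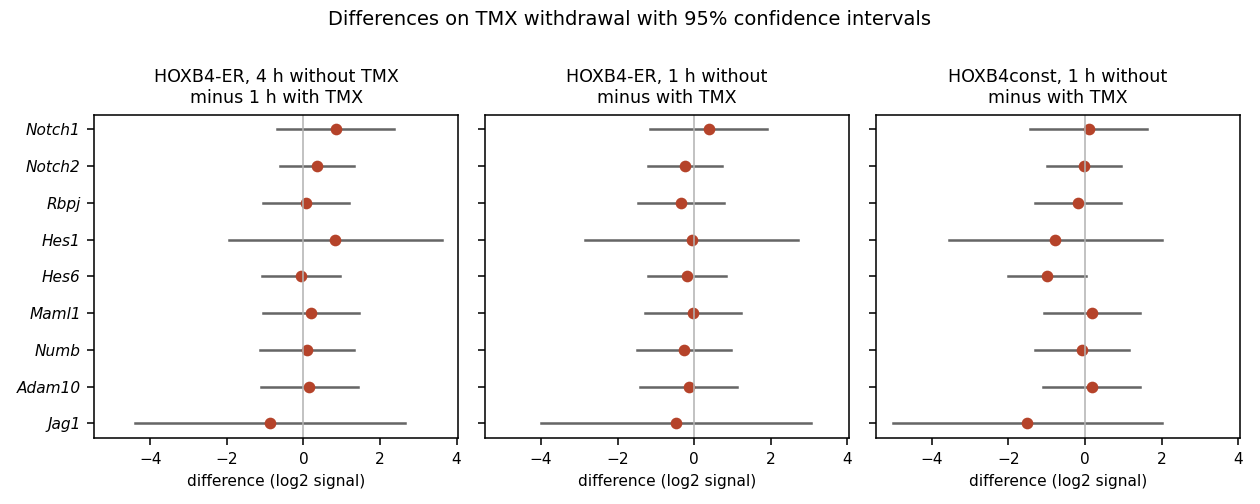
Differences in log2 signal on TMX withdrawal (horizontal axes) for the 9 genes by their brightest probe set, with 95% confidence intervals from limma, for HOXB4-ER after 4 h, HOXB4-ER after 1 h and HOXB4const after 1 h. Every interval includes 0; Notch2 has the narrowest and Jag1 the widest.

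The constructs were compared with HOXB4 active in both. With TMX for 1 h, HOXB4-ER minus HOXB4const gave −0.66 ± 0.65 for Notch1, −0.62 ± 0.41 for Notch2 and 1.87 ± 1.50 for Jag1, and the other 6 genes lay between −0.38 and 0.30. The median of the 9 was −0.06, against −0.17 over all probe sets, and turned to 0.05 with quantile normalization and 0.35 with median centring. In limma 0 of 22 and 0% of all passed, with 2 of 22 at an unadjusted p under 0.05 against 4.38% of all, Notch1 1418633_at at −1.15 ± 0.47 and Jag1 1421105_at at −1.26 ± 0.53. Arrays were apart for 1 higher and 5 lower member probe sets, against 9.28% and 22.5% of all.

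With both treatments of 1 h pooled, 4 arrays against 4, a comparison chosen after the values had been seen, Notch2 gave −0.72 ± 0.29 (95% confidence interval −1.40 to −0.04, limma adjusted p = 0.643). It was −0.81 without the HOXB4const array that stood apart and −0.34 ± 0.43 with each array centred on its median. All 4 HOXB4-ER arrays were below all 4 HOXB4const arrays as deposited. Arrays were apart in this way for 1 higher and 3 lower member probe sets, against 0.928% and 3.26% of all. Jag1 gave 2.38 ± 1.06 on 1434070_at (adjusted p = 0.681) and −2.13 ± 0.38 on 1421105_at (adjusted p = 0.322), so that the probe sets of this ligand gene disagreed on which construct was higher. Without the array that stood apart these were 3.37 and −1.87. Of all 22, 0 passed and 0% of all probe sets did, with 3 of 22 at an unadjusted p under 0.05 against 7.52% of all: Notch2, Jag1 1421105_at and the dim Adam10 1460083_at (−1.77 ± 0.60).

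Between the replicate numbers, 6 member probe sets had an unadjusted p under 0.05, the highest count of the comparisons run, against 13.7% of all probe sets, also the highest share. Over the 5 groups, with group as a term in the fit, 17 of 22 member probe sets were above 0 in replicate 1 minus replicate 2, with a median of 0.40 against 0.15 over all probe sets. Of the 9 brightest probe sets 7 were above 0, and 4 with each array centred on its median, while 9 of 9 were with the mean of each gene's probe sets. Adam10 1450105_at read 5.37 to 6.74 (median 6.38) in replicate 1 and 3.87 to 4.97 (median 4.35) in replicate 2, a difference of 1.86 ± 0.30. Rbpj 1418114_at read 5.94 to 6.83 (median 6.34) in replicate 1 and 3.71 to 5.31 (median 5.11) in replicate 2, a difference of 1.69 ± 0.29. In both the arrays of the 2 numbers were apart and replicate 1 was higher in 5 of 5 groups.

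The same held in part for 3 more genes. Jag1 1434070_at differed by 2.24 ± 0.47, at 6.25 ± 1.14 in replicate 1 and 4.01 ± 1.71 in replicate 2 (SD, n = 5 each). Hes6 1452021_a_at differed by 1.26 ± 0.25, at 6.46 ± 0.70 and 5.19 ± 0.52 in replicates 1 and 2, and the dim Numb 1425368_a_at by 1.61 ± 0.35. In each of these replicate 1 was higher in 5 of 5 groups, although the arrays overlapped between groups. The brighter Numb probe set 1416891_at was also apart, at 7.995 to 8.40 in replicate 1 and 7.27 to 7.98 in replicate 2, by a smaller 0.49 ± 0.25. Arrays were thus apart for 3 higher and 0 lower member probe sets, against 3.76% and 2.74% of all. Among the 22519 brighter probe sets these shares were 6.44% and 5.36%.

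In limma 0 of these 22 and 0% of all probe sets passed, with adjusted p of 0.156 for Adam10, 0.164 for Rbpj, 0.177 for Hes6, 0.183 for Jag1 and 0.193 for Numb. Of those with an unadjusted p under 0.05 all 6 were higher in replicate 1, as were 4742 of 6152 among all probe sets. The sixth was Notch1 1418634_at at 0.77 ± 0.28. The exact two-sided permutation p of 5 arrays against 5 was 0.00794 for Adam10 and Rbpj, the smallest it can give, and 0.122 after adjustment over all probe sets. With a trend of the spread on mean level and robust moderation, 4 of 22 passed (Adam10, Rbpj, Jag1 and Hes6), against 6.01% of all. Among probe sets at or above the median level alone, the same 4 passed, of 14 members, against 3.77% of all. Jag1 1434070_at met that level (4.05) only through replicate 1, with a mean of 6.25, against 4.01 in replicate 2. Its place among the brighter probe sets was therefore not independent of its difference. Without group as a term Adam10 alone passed, against 0.762% of all. Without the array that stood apart the differences were 1.60 for Adam10, 1.68 for Rbpj, 1.81 for Jag1 and 1.21 for Hes6, again none past the threshold in the first fit.

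Other probe sets of these genes gave smaller differences, though whether probe sets of a gene differ from each other was not tested. The brightest probe sets gave −0.14 ± 0.33 for Adam10 and 0.02 ± 0.28 for Rbpj, and the brighter Hes6 probe set gave 0.23 ± 0.23. The second Jag1 probe set, 1421105_at, gave −0.06 ± 0.33, and the third, 1421106_at, a scattered 1.23 ± 1.10. The remaining ones of Rbpj and Adam10 gave 0.31 ± 0.24, 0.07 ± 0.58 and 0.85 ± 0.45. Notch2 and Maml1 had no probe set at an unadjusted p under 0.05, at −0.09 ± 0.23 and 0.26 ± 0.32 on the brightest. Where along the transcripts each probe set binds was not analysed here.

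**Figure D3:**
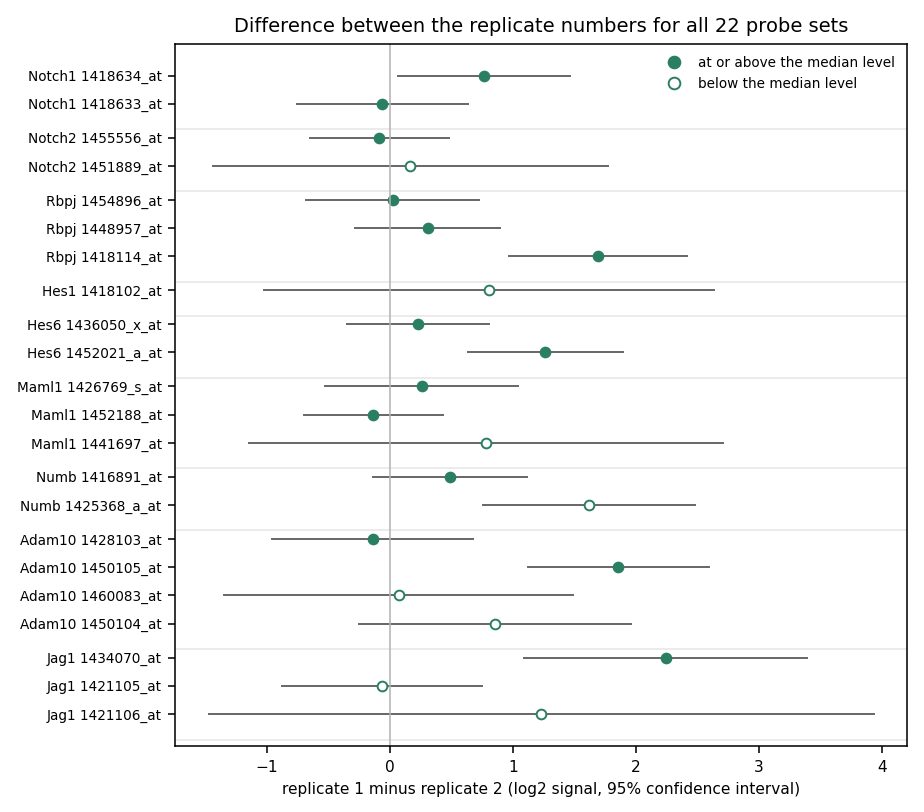
Replicate 1 minus replicate 2 in log2 signal (horizontal axis) for all 22 probe sets, with 95% confidence intervals from limma with group as a term. Filled points are probe sets at or above the median level and open points those below it; Adam10 1450105_at (1.86) and Rbpj 1418114_at (1.69) stand beside brighter probe sets of the same genes near 0.

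**Figure D4:**
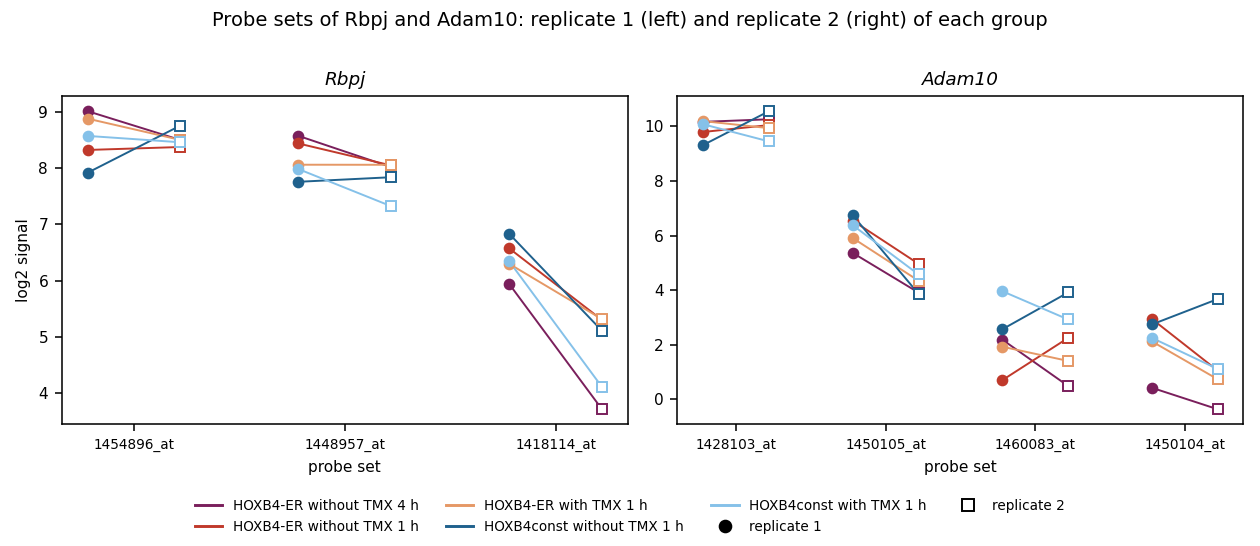
Log2 signal (vertical axes, not starting at 0) of the 3 probe sets of Rbpj and the 4 of Adam10, with lines joining replicate 1 (filled circles, left) and replicate 2 (open squares, right) of each group. All 5 lines fall for 1418114_at and 1450105_at, while those of the brightest probe sets cross.

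Control probe sets for RNA length and markers of monocytes and macrophages went with the same numbers, although the cells had been sorted as lineage negative before the last culture. For Gapdh, the 3′ control probe set minus the 5′ one, a gap that grows when RNA or its copies are short, was 0.74 to 1.42 in replicate 1 and 1.48 to 3.98 in replicate 2. The same difference for beta-actin was 1.49 to 2.28 in replicate 1 and 2.19 to 3.87 in replicate 2. The summed signal of 8 monocyte and macrophage markers was 9623 to 15388 in replicate 1 and 1282 to 2299 in replicate 2, with all 8 of 8 higher in replicate 1 and none below 0 on any array. The summed signal of 6 neutrophil markers, 6 of 6 higher in replicate 1, overlapped (2190 to 12764 and 1553 to 7460 in replicates 1 and 2). By construct this sum did not overlap, at 5328 to 12764 on the HOXB4-ER arrays and 1553 to 2717 on the HOXB4const arrays. It adds unlogged signals and rests mainly on Mpo, with a median of 12.4 over the arrays, against 6.38 for the next marker, Elane (log2). The single neutrophil markers were not compared by construct. The summed signal of 5 mast cell markers, 2 of 5 higher in replicate 1, was 6153 to 9236 in replicate 1 and 6069 to 10263 in replicate 2. For 8 stromal and endothelial markers, of cell types known to express Jag1, it was 371 to 694 in replicate 1 and 399 to 520 in replicate 2, with 3 of the 8 at or above the median level (Pdgfrb at 6.40 to 8.48, Pecam1 at 5.85 to 8.58 and Tek at 2.79 to 5.37) and Cdh5 the dimmest at 0.64 to 3.82 (log2). The part of any of these in the member differences was not tested.

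Of a wider list of 57 Notch pathway genes, 51 were matched to a probe set, 41 of them at or above the median level. By limma 0 of the 51 passed in any comparison, and the medians lay close to those of all genes. After 1 h without TMX in HOXB4-ER cells the median was 0.05, against 0.07 over all 18193 genes, with 28 higher and 23 lower. The 3 with the smallest p were the ligand gene Dll4 (−2.75 ± 0.85), the ubiquitin ligase gene Neurl1a (1.64 ± 0.52) and the receptor gene Notch4 (−1.80 ± 0.67), and none passed. Dll4 and Notch4 lay below the median level. After 4 h the median was −0.04, against 0.02, and the smallest p belonged to the ligand gene Jag2 (3.53 ± 0.11 after 4 h and 4.94 ± 0.52 with TMX, SD, n = 2), the corepressor gene Tle1 (7.10 ± 0.04 and 8.23 ± 0.10) and the ligand gene Dll1 (2.69 ± 2.25 and 5.83 ± 1.78), none of which passed (limma adjusted p = 1.00).

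The share of the list at an unadjusted p under 0.05 varied. After 4 h 4 of the 51 had such a p, all lower, 7.84% against 2.63% of all genes. Between 4 h and 1 h without TMX it was 7.84% against 4.40%, and after 1 h 5.88% against 3.53%. In HOXB4const cells it was 1.96% against 3.66%. For the interaction it was 3.92% against 3.05%, and between the constructs with TMX 1.96% against 3.63%. Between 4 h and 1 h without TMX the median was −0.13, against −0.06 over all genes, led by Notch4 (1.98 ± 0.67), Jag2 (−1.30 ± 0.50) and Dll1 (−3.26 ± 1.28). In HOXB4const cells it was −0.07, against 0.02, led by Neurl1a (1.34 ± 0.52), Dtx2 (−1.30 ± 0.69), a gene of the Deltex ubiquitin ligases, and the target gene Heyl (−1.49 ± 0.84). For the interaction the median was −0.03, against 0.02, led by Dll4 (−3.38 ± 1.20), Notch4 (−2.59 ± 0.94) and Heyl (2.68 ± 1.19). With TMX, HOXB4-ER minus HOXB4const, it was 0.02, against −0.10, led by the T lineage factor gene Gata3, which was very dim (0.28 ± 0.53 and 3.06 ± 0.17 in HOXB4-ER and HOXB4const cells), Tle4 (0.96 ± 0.44) and Notch4 (−1.22 ± 0.67). None of these passed. Between the replicate numbers the median was 0.12, against 0.03 over all genes. There 9 of the 51 had an unadjusted p under 0.05, 17.6% against 12.1% of all genes, and the 3 with the smallest p were the dim Maml2 (1.11 ± 0.30), the cyclin gene Ccnd1 (0.93 ± 0.28) and Dtx4 (0.68 ± 0.21).

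The wider list is described by role as the number of genes whose mean lay at or above the median level of probe sets. Of 14 matched genes of ligand and receptor processing 14 lay at or above the median level, as did 8 of 8 cytoplasmic regulators, 6 of 6 corepressors and 4 of 5 cofactors. A mean above the median does not keep a gene clear of low values: Aph1b, of the gamma-secretase complex, read as low as 1.27 and Numbl 1.73. Of 11 matched targets 4 lay at or above it: Heyl, Nrarp, Myc and Ccnd1. The feedback gene Nrarp, a frequent readout of Notch activity, stayed between 5.50 and 6.71 on the 10 arrays, while Hey1 and Hey2 reached at most 4.81 and 5.12.

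The genes whose levels went most like those of a member were sought among 11340 other genes at or above the median level, by Pearson r over the 10 arrays after centring each array on its median. The values describe these arrays, whose scale differences and replicate numbers all genes share, and with so many candidates high values are reached without any relation. For Notch1 they were Neat1, Irf1 and Abr (r = 0.925, 0.918 and 0.912), and for Notch2 Trim21, Il15 and Gkap1 (0.954, 0.948 and 0.947). For Rbpj they were Irgm1, Btbd7 and Zfp160 (0.993, 0.984 and 0.983), for Adam10 Dctn6, Ddx17 and Pttg1ip (0.991, 0.990 and 0.989), and for Numb Cerk, B3gnt5 and Samhd1 (0.985, 0.981 and 0.964). Hes6 went with Lrmda, Rasd2 and D8Ertd738e (0.976, 0.974 and 0.974), and Maml1 with Cyp4v3, Hira and Cmpk2 (0.903, 0.898 and 0.895). Jag1 went with Zfp62, the dendritic cell integrin gene Itgax and St14 (0.967, 0.940 and 0.936).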

How the data were processed

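The authors deposited 1 log2 signal per probe set and array of Affymetrix mouse arrays. Per the submitters' processing notes GCOS and RMA were used, without stated roles. The 2% trimmed mean of the unlogged values was 100.0 on every array and values reached below 0, so they were treated as globally scaled signals and not normalized again. Neither versions nor batches are stated in these sources. Per the labels' protocols RNA was amplified linearly with T7 polymerase and labelled as biotin-cRNA.

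Of 45037 probe sets that are not controls, 34945 map to 1 gene symbol in the table of platform annotation, 932 to several and 9160 to none given. Differences were fitted with limma 3.58.1 (R 4.3.3) over all 10 arrays, with 1 mean per group, two-sided, with Benjamini-Hochberg adjustment over all probe sets and a threshold of 0.05; the replicate comparison had group as a term. The fit was tested on simulated data. The probe set of highest mean over the arrays represents a gene, and the text names all member probe sets, the 3 genes of the wider list with the smallest p and the 3 most alike genes. Members and lists were chosen with earlier results of these data known. Same-numbered replicates deviated alike: replicate differences correlated between groups in 10 of 10 pairs (0.210 to 0.527 over 22519 brighter probe sets).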

Additional observations from a re-analysis of the deposited data

Results flagged for a closer look

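Among the 44 sets of 5 same-numbered arrays of the member probe sets, 1 held an array whose gap to the nearest other exceeded the 95% critical value of Dixon's test, where chance gives about 1 in 20. On the dim Jag1 probe set 1421106_at, the HOXB4const with TMX replicate 1 array read 1.45, against 3.85 to 4.45 on the other 4 replicate 1 arrays, a gap of 0.799 of the range.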

How the results depend on the processing

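Member differences kept their direction and their side of the threshold in most alternatives: 652 of 661 values apart from those that leave out an array, and 969 of 970 that do, counting as unchanged a sign change of a difference within 1 standard error of 0 (49 and 82 values). The others were 9 that passed and 1 that turned. HOXB4const Jag1 1434070_at ranged from −3.49 to 0.47 when arrays were left out in turn. In replicate 1 minus replicate 2, Jag1 1434070_at (2.24), Rbpj 1418114_at (1.69), Adam10 1450105_at (1.86) and Hes6 1452021_a_at (1.26) passed with brighter probe sets alone (adjusted p = 0.0451, 0.0279, 0.0254 and 0.0326) and with trend and robust moderation (0.00525, 0.00492, 0.00528 and 0.0136), and Adam10 alone of these without a group term (0.0411). That gave 4, 4 and 1 member probe sets past the threshold, and 850, 2706 and 343 of all. Jag1 1434070_at was among the brighter probe sets only through its replicate 1 arrays. With values below 4 set to 4, the counts over all probe sets were 37 for HOXB4-ER at 1 h, 110 for HOXB4const, 63 for the interaction, 43 between 4 h and 1 h, 24 between the constructs and 504 between the replicate numbers, with 0 members in each; values at the floor have no spread. Trend and robust moderation gave 1 between the constructs. The cause of the other changes was not tested. With the replicate block the counts stayed at 0 in the 6 comparisons of treatments and constructs, as did leaving out each array. For HOXB4-ER at 1 h the block took the standard error from 1.50 to 0.74 for Jag1 1434070_at and from 0.65 to 0.45 for Notch1 1418634_at. For Hes1 it went only from 1.18 to 1.17. The errors and intervals given for treatments and constructs are those without the block. Centring each array on its median moved the median of all probe sets after 1 h to −0.27, against 0.12 as deposited, and put 9 of 9 genes below 0 there, 9 of 9 below 0 in HOXB4const cells too, and 9 of 9 above 0 between 4 h and 1 h. The mean of each gene's probe sets put 5 above and 4 below 0 in HOXB4-ER at 1 h. In replicate 1 minus replicate 2 it put 9 above and 0 below 0, while median centring put 4 above and 5 below. With 2 arrays a group and no replicate block, intervals reach over 1 log2 unit for most members. Signals near background limit the 8 dim probe sets, that of Hes1 among them.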
